A study of Mus musculus with 19 samples.

Results

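Expression of 10 germline genes was followed in stem cells of the mouse embryo with and without Trim71 and Lin28a. They were Tdrd12, Tdrkh, Mael, Asz1 and Piwil2 of the piRNA pathway, Dazl and Stk31, the synaptonemal complex genes Sycp1 and Sycp3, and Taf7l. The 10 were taken by symbol from a table of 21685 genes, as germline genes that DNA methylation silences outside the germline. They were proposed with their levels in these libraries already known, so the differences between genotypes below describe the genes that were picked and are not a test of them. Of the 10 genes, 9 passed the filter on low values and Asz1 did not.

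PIWI proteins load small RNAs called piRNAs, which guide them to transposon transcripts. In fetal male germ cells they also direct DNA methylation to transposon copies. Tudor-domain proteins such as TDRD12 and TDRKH hold this machinery together in granules known as nuage, with MAEL and ASZ1. Promoters of many such genes are rich in CpG dinucleotides and are kept silent in somatic cells by methylation and by a Polycomb complex, PRC1.6, whose subunits MGA with MAX and E2F6 recognise E-box and E2F motifs. Mouse embryonic stem cells transcribe a number of germline genes at low to moderate levels.

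The cells were male C57BL/6 lines grown with FCS and LIF and sorted on magnetic beads for SSEA-1, a surface antigen of undifferentiated cells. TRIM71 is an RNA-binding ubiquitin ligase, and LIN28A binds RNA and blocks maturation of the microRNA let-7. Genotypes are named here with Trim71 before Lin28a: WT-WT (Trimfl/fl - Lin28afl/fl), KO-WT (Trim-/- - Lin28afl/fl), WT-KO (Trimfl/fl - Lin28a-/-) and KO-KO (Trim-/- - Lin28a-/-). Deletion of Trim71 was induced with 500 nM 4-OHT over 2 days, and at least 7 further days passed before harvest. WT-WT and KO-WT came from clones 1 and E3, and WT-KO and KO-KO from clones 1-4 and C1. Lin28a genotype and clone therefore cannot be told apart. WT-KO and KO-KO had 5 libraries each and WT-WT and KO-WT had 4, after a further KO-WT library, whose values were those of an average of its group, was set aside. The labels give a harvest day and a clone for each library but name no separate cultures, so the spread between libraries may be partly technical.

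All values are deposited log2 normalised expression, and the read depth of the libraries is unknown. Each library is a bulk sample, in which fewer expressing cells and less RNA per cell cannot be told apart. Trim71 lay at 10.04 or above in Trim71-intact libraries and at 9.55 or below in Trim71-null ones. Lin28a lay between 9.74 and 10.26 with the gene intact and between 8.21 and 8.57 without it, so both followed the labels. Of 10 markers of embryonic stem cells 9 were tested; 2 rose after Trim71 loss in either Lin28a state, 7 rose after Lin28a loss with Trim71 intact, and none fell in these 3 comparisons. After Lin28a loss in Trim71-null cells 4 rose and 1 fell. Of all tested genes, Trim71 loss called 4.74% higher with Lin28a intact and 4.26% in Lin28a-null cells. Lin28a loss called 20.3% higher with Trim71 intact, and 20.8% higher and 22.0% lower in Trim71-null cells. Lin28a itself was lower in KO-WT than in WT-WT, by -0.28 ± 0.0812 (SE, adjusted p 0.036). Trim71 rose after Lin28a loss, by 0.45 ± 0.111 with Trim71 intact (limma, adjusted p 0.0043) and 0.38 ± 0.111 in Trim71-null cells (adjusted p 0.0111). Trim71 loss left 40.3% of the Trim71 level with Lin28a intact and 38.5% in Lin28a-null cells. Lin28a loss left 31.8% of the Lin28a level with Trim71 intact and 33.8% in Trim71-null cells. Of the 7 markers of 2-cell-like cells in the table, 6 stayed under 10 normalised units in every library, the Zscan4 genes among them. The 3 fibroblast markers in the table had a summed log2 level of 6.45 to 6.88 with Lin28a intact and 6.00 to 6.32 without it, and 2 of the 3 fell after Lin28a loss in either Trim71 state. Lin28a loss called 22.0% of all tested genes lower in either Trim71 state. For the 7 testis somatic markers in the table the sums were 8.18 to 8.52 with Lin28a intact and 7.80 to 8.16 without it. Only 4 of them were tested. After Lin28a loss 1 of the 4 was called lower and 2 lay above 0 in either Trim71 state, with medians of -0.015 and 0.024. The sums thus do not describe the list gene by gene. The part of such cells in the germline values was not tested. Amh, Insl3 and Sox9 of the testis somatic list stayed under 10 units throughout.

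Promoter windows from RefSeq (GRCm38.p6) matched 9 of the 10 genes, all but Piwil2, and run from 250 bases before the transcription start to 50 after it. It is shown because these genes were chosen as methylation-silenced and because E-boxes are what MGA and MAX recognise. The stretches below lie upstream of the start and read 5′ to 3′ on the gene's strand, with the E-box, the palindrome CACGTG, in capitals. Dazl and Tdrd12 had no match and are shown with the 80 bases next to the start. Which promoters to show was chosen after the values had been seen.
Stk31, chr6:49395444-49395529, plus strand: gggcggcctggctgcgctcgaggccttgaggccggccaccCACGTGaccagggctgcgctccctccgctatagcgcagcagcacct
Taf7l, chrX:134476494-134476579, minus strand: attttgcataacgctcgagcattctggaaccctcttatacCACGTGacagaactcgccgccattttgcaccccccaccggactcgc
Sycp1, chr3:102936149-102936234, minus strand: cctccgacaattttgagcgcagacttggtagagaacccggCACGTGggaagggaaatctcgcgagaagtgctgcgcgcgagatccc
Sycp3, chr10:88459483-88459586, plus strand: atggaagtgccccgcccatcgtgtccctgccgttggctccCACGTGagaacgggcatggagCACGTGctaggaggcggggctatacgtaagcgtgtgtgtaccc
Mael, chr1:166238922-166238994, minus strand: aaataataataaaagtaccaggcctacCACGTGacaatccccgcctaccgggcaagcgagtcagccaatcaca
Dazl, chr17:50293621-50293700, minus strand: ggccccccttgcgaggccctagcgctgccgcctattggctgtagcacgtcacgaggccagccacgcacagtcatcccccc
Tdrd12, chr7:35537716-35537795, minus strand: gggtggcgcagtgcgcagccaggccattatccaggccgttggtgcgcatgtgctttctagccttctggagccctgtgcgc

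An E-box stood in 5 of the 9 windows, against 7.24% of the 27025 windows of all genes. In Stk31, Taf7l, Sycp1 and Sycp3 the match lay within 100 bases of the start, and Sycp3 held 2 copies at -64 and -43. The Mael match began at -223. An E2F-type motif, TCCCGC on either strand, occurred in 3 of the 9 windows (Mael, Sycp1 and Sycp3) against 20.0% of all windows. The letters of the motifs do not overlap. CpG dinucleotides numbered from 11 in Tdrd12 to 29 in Stk31, with a median of 21 against 7 over all windows. Among the 9514 windows with at least 15 CpG, a minimum set after the members' counts were seen, 11.5% held the E-box and 45.2% the E2F-type motif. Of the 9 windows 8 reached that minimum; Tdrd12 did not. Tdrd12 and Stk31 have 2 listed windows each, and the one listed first was used. A match is a run of letters, and no binding or methylation was measured here.

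**Figure D1:**
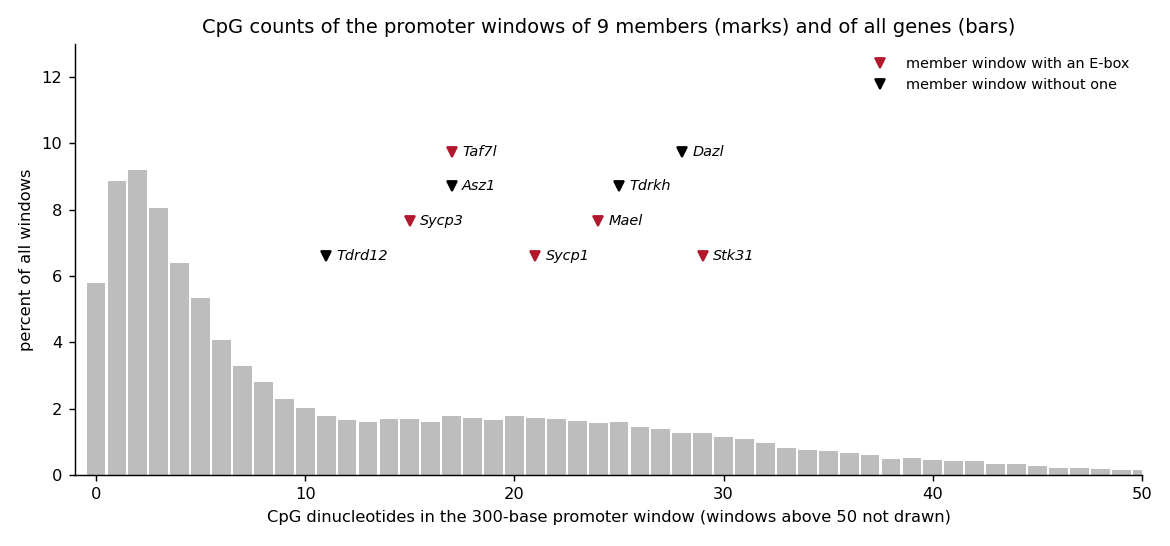
CpG dinucleotides per 300-base promoter window (horizontal axis) against the percent of all 27025 windows with that count (grey bars), with a mark for each of the 9 germline genes placed at its count and no meaning in the height of the marks. Marks run from 11 (Tdrd12) to 29 (Stk31), to the right of the median of 7 over all windows, and red marks are the 5 windows with an E-box.

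Per kilobase of the longest annotated transcript, WT-WT levels ran from 115.6 normalised units in Tdrd12 through 96.6 in Mael and 70.0 in Piwil2 to 14.5 in Tdrkh. Asz1 stood at 2.64 units per kilobase. All other values are log2 expression per gene and are compared across genotypes within a gene.

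**Figure D2:**
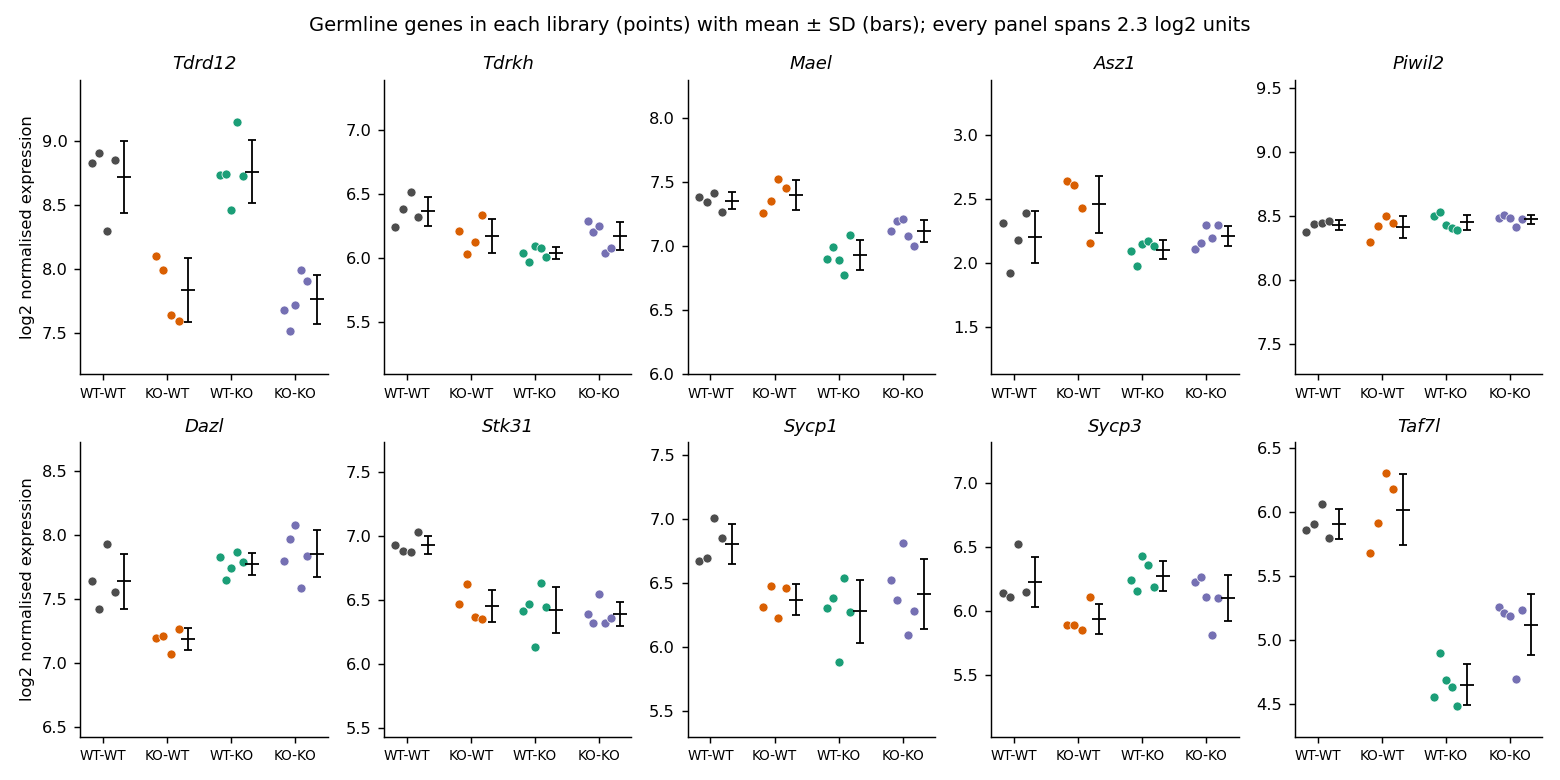
Log2 normalised expression (vertical axis) of the 10 germline genes in each of 18 libraries, grouped by genotype on the horizontal axis, with the mean and SD of each genotype beside its points. Tdrd12 is lower in both Trim71-null genotypes, Taf7l is lower in both Lin28a-null genotypes, and Dazl is lower in KO-WT than in the other genotypes; Piwil2 stays between 8.30 and 8.53.

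Tdrd12 encodes a tudor-domain protein with a helicase domain that is needed for secondary piRNA production. In WT-WT libraries Tdrd12 stood at 8.83, 8.91, 8.30 and 8.85, and in KO-WT libraries at 8.11, 7.99, 7.65 and 7.60. WT-KO gave 8.74, 8.74, 8.46, 9.15 and 8.73, and KO-KO gave 7.68, 7.51, 7.72, 7.99 and 7.91. The 9 Trim71-null libraries were thus all lower than the 9 Trim71-intact ones, whichever state Lin28a was in. The difference for Trim71 loss was -0.89 ± 0.1701 (SE) with Lin28a intact, which leaves 54.1% of the WT-WT level, and -0.998 ± 0.146 in Lin28a-null cells, which leaves 50.1%. Pairs harvested on the same day were lower in KO-WT in 3 of 3 cases (-1.25 to -0.66) and lower in KO-KO in 5 of 5 (-1.23 to -0.74). Lin28a loss gave 0.04 ± 0.158 and -0.07 ± 0.158, so the 2 Trim71-intact genotypes and the 2 Trim71-null genotypes each lay within their own spread. With Lin28a intact the difference was -1.28 in clone 1, which has 1 KO-WT library, and -0.67 in clone E3. The latter (adjusted p 0.186) and the fit of those genotypes alone (-0.94, adjusted p 0.0503) passed the threshold no longer.

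The expressed neighbour Nudt19 differed by -0.31 ± 0.117 with Lin28a intact, which was not called (adjusted p 0.0906), and by -0.43 ± 0.1003 in Lin28a-null cells (adjusted p 0.0142). On the other side, Cep89 differed by 0.11 ± 0.0504 and 0.06 ± 0.0431 and was not called (adjusted p 0.157 and 0.490). This look at neighbours was added after the values of Tdrd12 were known.

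Tdrkh, a mitochondrial tudor protein that serves piRNA trimming, was highest in WT-WT at 6.25, 6.38, 6.51 and 6.32. KO-WT had 6.21, 6.03, 6.12 and 6.34, and KO-KO had 6.29, 6.20, 6.25, 6.04 and 6.08. WT-KO, at 6.04, 5.97, 6.09, 6.08 and 6.01, lay wholly below WT-WT. The difference for Lin28a loss with Trim71 intact was -0.33 ± 0.0839, or 79.7% of the level, and its call was lost in clones 1 and 1-4 (adjusted p 0.101). No other comparison of Tdrkh was called. Loss of both (-0.19 ± 0.0839) was called lower without the day term (adjusted p 0.0225). It was also called without WT-WT replicate 1, KO-KO replicate 1 or KO-WT replicate 4 (adjusted p 0.0411, 0.0423 and 0.0494). A transcript of Oaz3 overlaps Tdrkh on the opposite strand over 2255 bases, the kit does not mark strand, and reads of the pair cannot be told apart there. Oaz3 itself gave -0.07 ± 0.0963 after Lin28a loss with Trim71 intact.

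Mael, which is needed for transposon silencing in the male germline, was lower in libraries without Lin28a. WT-WT had 7.38, 7.34, 7.42 and 7.26, and KO-WT had 7.25, 7.35, 7.52 and 7.45. WT-KO had 6.90, 6.99, 6.89, 6.77 and 7.08, and KO-KO had 7.11, 7.19, 7.21, 7.08 and 7.00. The Lin28a-null libraries were all below the Lin28a-intact ones. Lin28a loss gave -0.42 ± 0.0781 with Trim71 intact and -0.28 ± 0.0781 in Trim71-null cells, in 4 of 4 same-day pairs each. The call of -0.28 was lost with GC and length trends removed (-0.19 ± 0.0878, adjusted p 0.0832), in clones 1 and 1-4 (adjusted p 0.0612) and in clones E3 and C1 (adjusted p 0.139). With Trim71 loss the values were 0.04 ± 0.0844 and 0.19 ± 0.0723, neither of them called. The value of 0.19 was called without the day term (adjusted p 0.0362). Loss of both genes gave -0.23 ± 0.0781 and -0.08 ± 0.0878 once trends with transcript GC content and length had been taken out of each library. That call was lost in 4 of 10 other settings and without WT-WT replicate 1 or 3 or KO-KO replicate 4 or 5.

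Piwil2, which encodes a PIWI protein of male germ cells, was not called in any comparison. Genotype means ran from 8.41 ± 0.0861 (SD, n = 4) in KO-WT to 8.47 ± 0.0369 (n = 5) in KO-KO. Its largest difference was 0.06 ± 0.0521 after Lin28a loss in Trim71-null cells, and its values overlapped between genotypes in each comparison. Asz1, a nuage protein with ankyrin repeats, lay between 1.92 and 2.64 in all 18 libraries, below the filter of 10 normalised units. Its means were 2.20 ± 0.204 in WT-WT, 2.45 ± 0.221 in KO-WT, 2.10 ± 0.0762 in WT-KO and 2.21 ± 0.0816 in KO-KO, and it was not tested.

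Dazl encodes an RNA-binding protein needed for germ cell development. KO-WT held the lowest libraries, at 7.20, 7.21, 7.07 and 7.27, below those of WT-WT at 7.64, 7.43, 7.93 and 7.56. WT-KO had 7.83, 7.65, 7.74, 7.87 and 7.79, and KO-KO had 7.80, 7.97, 8.08, 7.59 and 7.84. The 3 genotypes other than KO-WT overlapped. Trim71 loss gave -0.45 ± 0.114 with Lin28a intact and 0.08 ± 0.0976 in Lin28a-null cells. Lin28a loss gave 0.14 ± 0.105 with Trim71 intact and 0.67 ± 0.105 in Trim71-null cells, where Dazl stood at 159% of the KO-WT level. Dazl was higher in KO-KO than in KO-WT in 4 of 4 same-day pairs (0.52 to 0.87). Loss of both gave 0.22 ± 0.105 and was not called. With GC and length trends removed, Lin28a loss with Trim71 intact (0.26 ± 0.0790, adjusted p 0.0119) and loss of both (0.37 ± 0.0790, adjusted p 0.000975) were called higher, as they were without WT-WT replicate 3 (0.27 and 0.35); loss of both was also called without KO-KO replicate 4 (0.31). The call of -0.45 was lost in 5 of 10 other settings, among them removal of GC and length trends (-0.24 ± 0.0854, adjusted p 0.0967), and without WT-WT replicate 3 (-0.31) or KO-WT replicate 3 (-0.40). The call of 0.67 held in each setting that was run.

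Stk31, a germ cell gene whose protein joins a tudor domain to a kinase domain, was highest in WT-WT. WT-WT libraries had 6.93, 6.89, 6.88 and 7.03. KO-WT had 6.47, 6.63, 6.37 and 6.36, WT-KO had 6.42, 6.48, 6.14, 6.63 and 6.45, and KO-KO had 6.40, 6.32, 6.55, 6.32 and 6.37. No library of the 3 mutant genotypes reached the WT-WT range, and those 3 overlapped each other. Stk31 differed by -0.47 ± 0.103 after Trim71 loss, by -0.51 ± 0.0952 after Lin28a loss and by -0.54 ± 0.0952 after loss of both, each against WT-WT. Against a background already null for the other gene, Trim71 loss gave -0.03 ± 0.0881 and Lin28a loss -0.07 ± 0.0952. The 3 comparisons against WT-WT share its libraries. The call of -0.47 was lost in clones E3 and C1 (adjusted p 0.236), on the 3 full days (adjusted p 0.0657), with WT-WT and KO-WT fitted by themselves (adjusted p 0.114) and without WT-WT replicate 4 (adjusted p 0.0544). The other 2 calls were lost in clones E3 and C1 (adjusted p 0.0675 and 0.0545).

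Sycp1 encodes the transverse filament of the synaptonemal complex and Sycp3 a part of its axial element. WT-WT had Sycp1 at 6.67, 6.70, 7.01 and 6.85, and KO-WT at 6.31, 6.48, 6.23 and 6.46. WT-KO had 6.30, 6.39, 5.89, 6.54 and 6.27, and KO-KO had 6.52, 6.36, 6.81, 6.09 and 6.28. As with Stk31, WT-WT lay above KO-WT and WT-KO without overlap, while KO-KO reached into the WT-WT range with 1 library. Lin28a loss with Trim71 intact gave -0.53 ± 0.145 and loss of both -0.39 ± 0.145; both were called. The call of -0.53 was lost in clones E3 and C1 (adjusted p 0.11). That of -0.39 was lost in 3 of 10 other settings and without WT-WT replicate 3 or 4, WT-KO replicate 2, or KO-KO replicate 2, 4 or 5. Trim71 loss with Lin28a intact gave -0.44 ± 0.157 and was not called. It was called without WT-KO replicate 3, KO-KO replicate 3 or the day term, and was -0.18 ± 0.0996 after removal of GC and length trends. Sycp3 ranged from 5.81 to 6.52 over all libraries, with means of 6.23 ± 0.197 in WT-WT, 5.94 ± 0.118 in KO-WT, 6.28 ± 0.117 in WT-KO and 6.10 ± 0.179 in KO-KO. Its values overlapped between genotypes and no comparison was called. With the day term left out, Sycp3 was called lower after Trim71 loss with Lin28a intact (adjusted p 0.0381). Without KO-KO replicate 4 it was called higher after Lin28a loss in Trim71-null cells (0.27 ± 0.102, adjusted p 0.0433). Chpt1 overlaps Sycp3 on the opposite strand over 420 bases and fell after Trim71 loss with Lin28a intact (-0.30 ± 0.0818, adjusted p 0.0315), beside -0.29 ± 0.121 for Sycp3.

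Taf7l, a germ cell paralogue of the TFIID subunit TAF7, had the largest difference of the 9 tested genes after Lin28a loss. WT-WT had 5.86, 5.91, 6.07 and 5.80, and KO-WT had 5.68, 5.92, 6.31 and 6.18. WT-KO had 4.56, 4.90, 4.69, 4.64 and 4.49, and KO-KO had 5.26, 5.21, 5.19, 4.70 and 5.24. All 10 Lin28a-null libraries were below the 8 Lin28a-intact ones, and WT-KO lay below KO-KO with an overlap through 1 KO-KO library. Lin28a loss left 41.9% of the level with Trim71 intact (-1.26 ± 0.142) and 53.6% in Trim71-null cells (-0.90 ± 0.142). Trim71 loss gave 0.11 ± 0.154 with Lin28a intact and 0.47 ± 0.132 in Lin28a-null cells, with 5 of 5 pairs of 1 day higher in KO-KO. The call for KO-KO did not hold in 3 of 10 other settings and in 8 of 18 fits that left out 1 library, among them clones E3 and C1 alone (0.29 ± 0.179).

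Counted over the 9 tested genes, Trim71 loss with Lin28a intact gave 3 calls, all lower (Tdrd12, Dazl and Stk31), where 6.43% of 14988 tested genes were called lower and 4.74% higher. In Lin28a-null cells it gave 1 lower (Tdrd12) and 1 higher (Taf7l), where 4.12% were called lower and 4.26% higher. Lin28a loss gave 5 calls with Trim71 intact, all lower (Taf7l, Sycp1, Stk31, Mael and Tdrkh), against 22.0% called lower and 20.3% higher. In Trim71-null cells it gave 2 lower (Taf7l and Mael) and 1 higher (Dazl), against 22.0% and 20.8%. Loss of both gave 5 calls, all lower (Tdrd12, Taf7l, Stk31, Sycp1 and Mael), against 24.6% lower and 21.0% higher. With GC and length trends removed, Lin28a loss with Trim71 intact gave 1 higher and 5 lower and loss of both 1 higher and 4 lower, the higher one being Dazl. The genes were picked with these values known, so nothing is read from these counts.

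**Figure D3:**
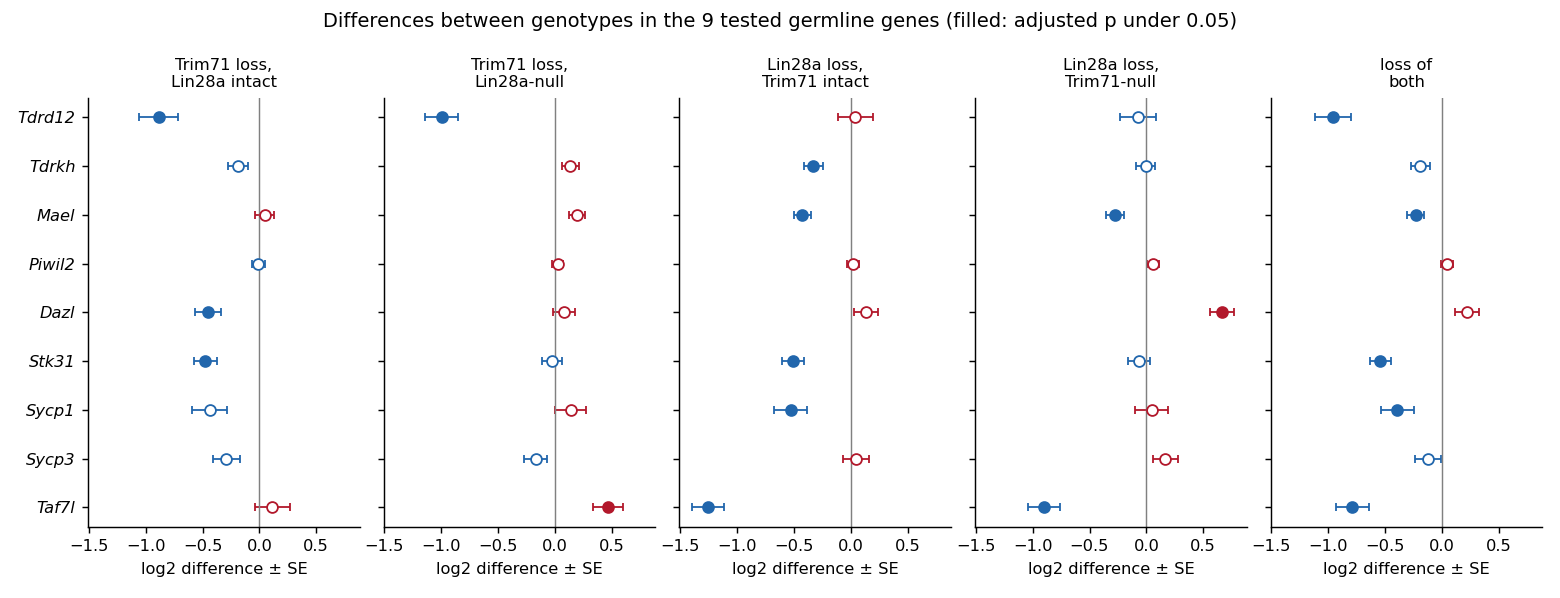
Log2 difference with its SE (horizontal axis) of the 9 tested germline genes in 5 comparisons between genotypes, with filled points for an adjusted p under 0.05, red above 0 and blue below. The Tdrd12 points lie near -1 in both Trim71 comparisons and near 0 in both Lin28a comparisons, and the Taf7l points lie at -1.26 and -0.90 in the Lin28a comparisons.

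The median difference of the 9 genes was -0.29 after Trim71 loss with Lin28a intact, 0.08 in Lin28a-null cells, -0.33 and -0.004 for Lin28a loss with Trim71 intact and in Trim71-null cells, and -0.23 for loss of both. Over all tested genes the same medians lay between -0.019 and -0.001. Whether the effect of Trim71 loss depended on Lin28a was asked with an interaction term, which was 0.53 ± 0.150 for Dazl, 0.57 ± 0.207 for Sycp1, 0.44 ± 0.136 for Stk31 and 0.32 ± 0.119 for Tdrkh. It was -0.11 ± 0.224 for Tdrd12. No interaction was called among the 9 genes by limma, and 0.0200% of all tested genes were called. An unadjusted p under 0.05 was found for 4 of the 9 and for 2256 of the 14988 tested genes. Without the day term Dazl (adjusted p 0.0310) and Stk31 (adjusted p 0.0362) were called. A dependence on Lin28a was therefore not shown for any of the 9.

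GC content moved with the effect of Trim71 loss in Lin28a-intact cells. Over 14724 genes, which are no independent replicates, the KO-WT minus WT-WT difference had a Spearman correlation of 0.515 with GC content of the transcript. In Lin28a-null cells the same correlation was 0.0092, and for the interaction -0.514. For Lin28a loss it was 0.247 with Trim71 intact and -0.1 in Trim71-null cells, and for loss of both it was 0.241. Transcripts of the germline genes were AT-rich: Sycp3 had 34.3% GC, Sycp1 34.6%, Dazl 37.0% and Stk31 40.1%, and Piwil2 was highest at 49.2%. After each library's trend was removed, Trim71 loss with Lin28a intact gave -0.79 ± 0.164 for Tdrd12 and -0.31 ± 0.0884 for Stk31, which were called, and -0.05 ± 0.117 for Sycp3. The interaction for Dazl became 0.35 ± 0.112. The part of GC content in these differences was not tested further.

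Markers of primitive endoderm moved with both genes. Of the 9 listed, 7 were tested. After Lin28a loss 7 fell with Trim71 intact (median -1.52) and 5 fell in Trim71-null cells (median -1.41), and after loss of both 5 fell (median -1.20). Of all tested genes 22.0% were called lower after Lin28a loss in either Trim71 state and 24.6% after loss of both. After Trim71 loss all 7 lay above 0 in either Lin28a state, with medians of 0.24 and 0.32 and 1 and 2 called higher. Of all tested genes 4.74% and 4.26% were called higher there, and 51.1% and 53.4% lay below 0. Their summed log2 level was 11.40 to 11.73 in WT-WT, 11.75 to 12.16 in KO-WT, 10.16 to 10.58 in WT-KO and 10.66 to 11.05 in KO-KO, with no overlap between these genotypes. Foxa2 stayed under 10 normalised units in all libraries and Sox17 in those of WT-WT, WT-KO and KO-KO. The cells had been sorted for SSEA-1 before these levels were measured. The part of such cells in the differences of the germline genes, after loss of either gene, was not tested.

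The wider germline programme was described with lists of piRNA and nuage genes (23), meiotic chromosome genes (33) and other germ cell genes (33), none of them among the 10. Of these 89 genes, 63 were tested. After Trim71 loss with Lin28a intact 11 fell and 0 rose, which is 17.5% called against 11.2% of all tested genes, and the median was -0.11. By list, 3 of 18 tested piRNA genes, 6 of 23 meiotic genes and 2 of 22 other germ cell genes fell. Tex15, needed for piRNA-directed methylation, changed by -0.62 ± 0.171 (adjusted p 0.0321), Rnf17, a tudor protein of germ cell granules, by -0.51 ± 0.146 (adjusted p 0.0366) and Fkbp6, a co-chaperone of piRNA loading, by -0.41 ± 0.112 (adjusted p 0.0306). In the meiotic list Meioc, which sustains the meiotic programme, changed by -0.55 ± 0.141 (adjusted p 0.024), the meiotic cohesin Smc1b by -0.50 ± 0.155 (adjusted p 0.0474), Meioc's partner Ythdc2 by -0.44 ± 0.130 (adjusted p 0.0408) and the axis protein Hormad1 by -0.40 ± 0.105 (adjusted p 0.026). Tex14, an intercellular bridge protein, changed by -0.38 ± 0.0828 (adjusted p 0.0121) and the receptor Kit by -0.34 ± 0.0736 (adjusted p 0.012). Each of the 11 genes had KO-WT libraries below all WT-WT ones. They were called on these same libraries, and the like share over all tested genes was not taken. Nothing is therefore read from that separation. Every gene named here lost its call with clones E3 and C1 only, and also when WT-WT and KO-WT were fitted by themselves. Tex15, Smc1b, Ythdc2 and Hormad1 lost it with GC and length trends removed as well. The Smc1b call held in 4 of 10 other settings and in 6 of 18 fits with 1 library left out. For Ythdc2 these counts were 4 and 10. Removal of GC and length trends left 6 of 63 called, all lower; without WT-WT replicate 3 the count was 2, without KO-WT replicate 3 it was 3 and without WT-WT replicate 4 it was 4.

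After Trim71 loss in Lin28a-null cells 3 of the 63 genes rose and 2 fell, 7.94% against 8.38% of all tested genes. Mov10l1, the helicase that starts piRNA processing, rose by 0.30 ± 0.0513 (adjusted p 0.00183) and the meiotic cohesin subunit Stag3 by 0.21 ± 0.0435 (adjusted p 0.00773). Pld6, the mitochondrial nuclease of piRNA production, changed by -0.22 ± 0.0633 (adjusted p 0.0414), a call that held in 3 of 10 other settings. Tfap2c, an early germ cell transcription factor, changed by -0.22 ± 0.0631 (adjusted p 0.0376), a call that held in 4 of 10 other settings and in 10 of 18 fits with 1 library left out. Xlr3a rose by 0.36 ± 0.0825 (adjusted p 0.0135) but belongs to a family of near-identical copies, so its value is uncertain. Mov10l1, Stag3 and Xlr3a each lost the call in clones 1 and 1-4, in clones E3 and C1, and on the 3 days with all 4 genotypes. The interaction called 0 of the 63 by limma, and 5 without the day term. An unadjusted p under 0.05 was found for 16 of the 63, beside 2256 of the 14988 tested genes.

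After Lin28a loss with Trim71 intact, 15 of the 63 genes rose and 16 fell, 49.2% against 42.4% of all tested genes, with a median of 0.02. With GC and length trends removed 20 rose and 15 fell. In the piRNA list 5 rose and 7 fell: Tex15 changed by -1.10 ± 0.159 (adjusted p 4.62e-05), Rnf17 by -0.51 ± 0.135 (adjusted p 0.00604) and Mov10l1 by -0.43 ± 0.0555 (adjusted p 1.57e-05), while the tudor gene Tdrd5 rose by 0.73 ± 0.0765 (adjusted p 1.92e-06). In the meiotic list 5 rose and 2 fell, with Stag3 higher by 0.35 ± 0.0470 (adjusted p 2.31e-05), the double-strand break gene Mei4 by 0.36 ± 0.0950 (adjusted p 0.00595) and the telomere attachment gene Terb2 by 0.34 ± 0.0764 (adjusted p 0.00193), and Meioc lower by -0.50 ± 0.130 (adjusted p 0.00594). Rnf17 and Mei4 lost these calls in clones E3 and C1, and Terb2 in clones 1 and 1-4. Meioc and Mei4 lost them on the 3 days with all 4 genotypes. Among other germ cell genes 5 rose and 7 fell. Prdm14 (0.71 ± 0.0720, adjusted p 1.19e-06) and Prdm1 (0.69 ± 0.0981, adjusted p 3.91e-05), which act in primordial germ cells, rose. Tfap2c, with a like role, had 0.13 ± 0.0682 (adjusted p 0.139), and the X-linked homeobox gene Rhox5 fell (-0.63 ± 0.0608, adjusted p 7.75e-07), as did Xlr3a, whose value is uncertain (-0.68 ± 0.0892, adjusted p 1.81e-05).

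After Lin28a loss in Trim71-null cells 20 rose and 10 fell, 47.6% against 42.8% of all tested genes. In the piRNA list, with 5 higher and 3 lower, the kinesin gene Kif17 rose by 0.50 ± 0.0989 (adjusted p 0.000704), the PIWI gene Piwil4 by 0.43 ± 0.0906 (adjusted p 0.00126) and Tdrd5 by 0.35 ± 0.0765 (adjusted p 0.0016), while Gtsf1, a PIWI cofactor, changed by -0.40 ± 0.0765 (adjusted p 0.000549). Of 23 meiotic genes 10 rose and 1 fell. Smc1b rose by 0.57 ± 0.144 (adjusted p 0.00476), Stag3 by 0.49 ± 0.0470 (adjusted p 6.07e-07), the recombination gene Msh5 by 0.53 ± 0.124 (adjusted p 0.00272) and Mei4 by 0.37 ± 0.0950 (adjusted p 0.00519). Kif17, Piwil4, Gtsf1, Tdrd5, Smc1b, Msh5 and Mei4 lost these calls in clones 1 and 1-4, where KO-WT has 1 library. On the 3 days with all 4 genotypes Msh5 and Mei4 lost them, and Mei4 also in clones E3 and C1. Of other germ cell genes 5 rose and 6 fell, with Prdm14 at 0.86 ± 0.0720 (adjusted p 1.54e-07), Kit at 0.85 ± 0.0682 (adjusted p 9.29e-08), Tex101, a sperm surface protein gene, at -0.69 ± 0.0767 (adjusted p 3.28e-06) and Rhox5 at -0.67 ± 0.0608 (adjusted p 3.62e-07).

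For loss of both genes 10 rose and 16 fell, 41.3% against 45.6% of all tested genes, and 20 rose and 13 fell with GC and length trends removed. In the piRNA list Tex15 changed by -0.97 ± 0.159 (adjusted p 0.000141), Rnf17 by -0.75 ± 0.135 (adjusted p 0.000327) and the tudor gene Tdrd7 by -0.60 ± 0.106 (adjusted p 0.000295), and Tdrd5 rose by 0.50 ± 0.0765 (adjusted p 7.0e-05). In the meiotic list Stag3 rose by 0.56 ± 0.0470 (adjusted p 1.36e-07), Msh5 by 0.44 ± 0.124 (adjusted p 0.00846) and the meiotic cohesin Rec8 by 0.38 ± 0.0943 (adjusted p 0.00375), and Meioc changed by -0.56 ± 0.130 (adjusted p 0.00233). Msh5 and Rec8 lost these calls in clones E3 and C1 and on the 3 days with all 4 genotypes. Prdm14 rose by 0.86 ± 0.0720 (adjusted p 1.22e-07) and Prdm1 by 0.59 ± 0.0981 (adjusted p 0.000176), while Tex101 changed by -0.80 ± 0.0767 (adjusted p 5.83e-07) and Rhox5 by -0.71 ± 0.0608 (adjusted p 1.51e-07).

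**Figure D4:**
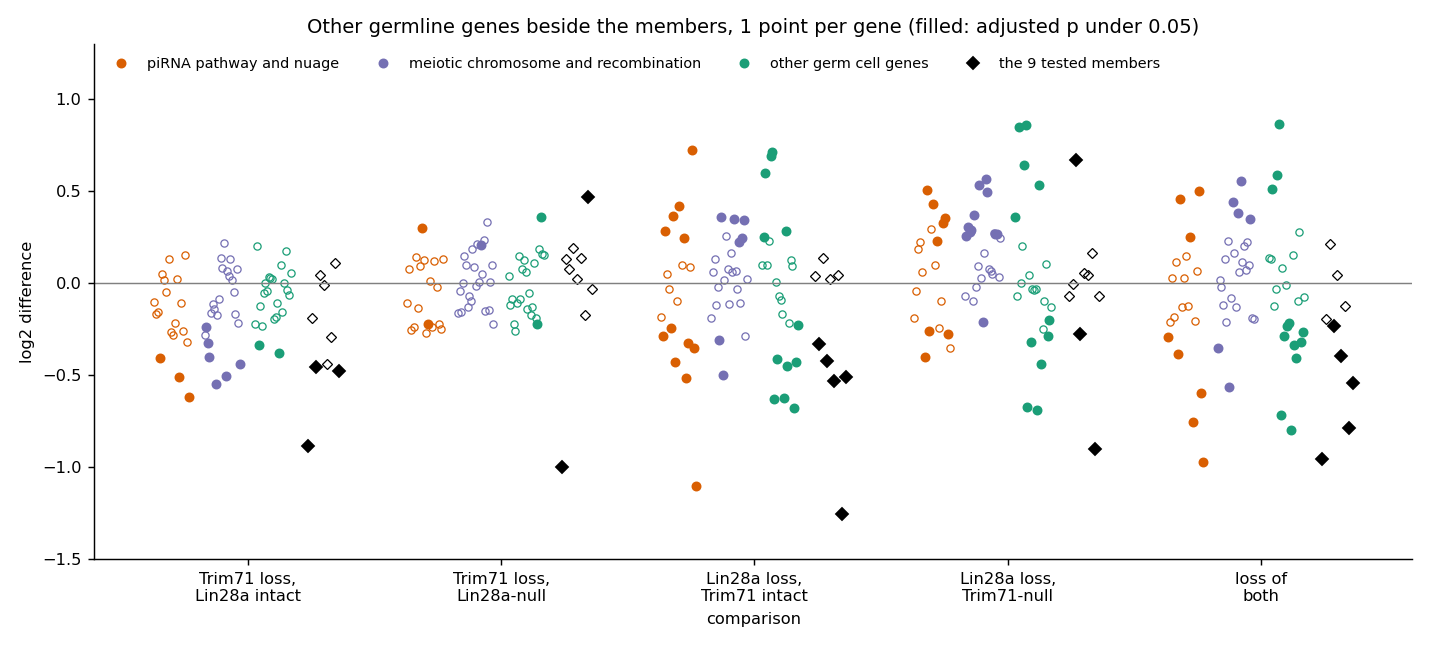
Log2 difference (vertical axis) of each of the 63 tested genes of the 3 germline lists (circles, coloured by list) and of the 9 tested germline genes chosen for description (black diamonds) in 5 comparisons, with filled symbols for an adjusted p under 0.05. In the first comparison the 11 filled circles all lie below 0; in both Lin28a comparisons filled circles lie on both sides of 0.

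A list of 24 genes, drawn up for repressors of germline genes, also held the demethylase genes Tet1 and Tet2. Its counts and shares are therefore not of repressors alone. All 24 were tested. Of them, 3 were called after Trim71 loss with Lin28a intact, 12.5% against 11.2% of all tested genes. These calls too were lost in clones E3 and C1 alone and when WT-WT and KO-WT were fitted by themselves. Mga changed by -0.64 ± 0.148 (adjusted p 0.0161), the heterochromatin protein gene Cbx3 by -0.26 ± 0.0710 (adjusted p 0.0319), and the histone methyltransferase gene Ehmt2 rose by 0.27 ± 0.0483 (adjusted p 0.0043). Mga and Cbx3 also lost the call on the 3 days with all 4 genotypes. Cbx3 lost it with GC and length trends removed too, and held it in 13 of 18 fits with 1 library left out. KO-WT means were 10.77 ± 0.266 (SD, n = 4) for Mga against 11.41 ± 0.214 in WT-WT (n = 4). In Lin28a-null cells limma called 0 of the 24, with 4 at an unadjusted p under 0.05, beside 3413 of the 14988 tested genes. Lin28a loss with Trim71 intact called 14 (58.3%, against 42.4% of all tested genes), 8 higher and 6 lower. The Dnmt3 family genes Dnmt3l (-0.71 ± 0.0925, adjusted p 1.73e-05), Dnmt3a (-0.54 ± 0.105, adjusted p 0.000661) and Dnmt3b (-0.38 ± 0.101, adjusted p 0.00633) were lower, and the demethylase gene Tet1 was higher at 0.37 ± 0.116 (adjusted p 0.018). Dnmt3a, Dnmt3b and Tet1 lost these calls in clones E3 and C1, and Tet1 also on the 3 days with all 4 genotypes. The maintenance methyltransferase gene Dnmt1 (0.36 ± 0.0358, adjusted p 9.67e-07) and its partner Uhrf1 (0.32 ± 0.0484, adjusted p 7.38e-05) rose; these were named after their values had been seen. In Trim71-null cells the count was again 14 (58.3% against 42.8%), 9 higher and 5 lower, with Dnmt3l at -0.75 ± 0.0925 (adjusted p 9.5e-06), Dnmt3a at -0.59 ± 0.105 (adjusted p 0.000303), Tet1 at 0.71 ± 0.116 (adjusted p 0.000161), Tet2 at 0.77 ± 0.134 (adjusted p 0.000246), Dnmt1 at 0.37 ± 0.0358 (adjusted p 6.67e-07) and Uhrf1 at 0.28 ± 0.0484 (adjusted p 0.000259). Loss of both called 15 (62.5% against 45.6%), 8 higher and 7 lower. Dnmt3a changed there by -0.85 ± 0.105 (adjusted p 8.33e-06) and Dnmt3l by -0.55 ± 0.0925 (adjusted p 0.000191), while Tet1 rose by 0.59 ± 0.116 (adjusted p 0.000747), Tet2 by 0.55 ± 0.134 (adjusted p 0.00345), Dnmt1 by 0.30 ± 0.0358 (adjusted p 5.61e-06) and Uhrf1 by 0.25 ± 0.0484 (adjusted p 0.000691). Tet1 and Tet2 lost these calls in clones E3 and C1, and Tet2 also on the 3 days with all 4 genotypes. Protein, DNA methylation and piRNA levels were not analysed here.

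Patterns over the 18 libraries were compared with Pearson's r as a description; the libraries share clones, days and Lin28a state. The genes most like Tdrd12 were Cdc25a (0.961), Trim13 (0.953) and Pde1b (0.945), and those most like Dazl were Ibtk (0.955), Tab2 (0.950) and Alg6 (0.949). Taf7l was most like Ubash3b (0.974), Vopp1 (0.974) and Plpbp (0.972), and Mael most like Itga3 (0.954), Sgcb (0.952) and Slc5a11 (0.936). Sycp1 was most like Bod1l (0.979), Casp8ap2 (0.969) and Ranbp2 (0.964), Stk31 most like Gm11715 (0.959), Eif3j1 (0.942) and Psmc6 (0.941), and Sycp3 most like Man2a1 (0.957), Sbf2 (0.917) and Lpgat1 (0.914). For Tdrkh they were Zfp947 (0.915), Polk (0.897) and Rnf213 (0.893), and for Piwil2 Gm20416 (0.909), Prdm2 (0.842) and Gm26693 (0.837). Among the germline genes themselves, r was 0.92 between Mael and Taf7l, 0.84 between Sycp1 and Stk31 and 0.69 between Dazl and Sycp3. Tdrd12 had its highest r with Stk31, at 0.53. The 9 genes thus did not vary as a block.

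**Figure D5:**
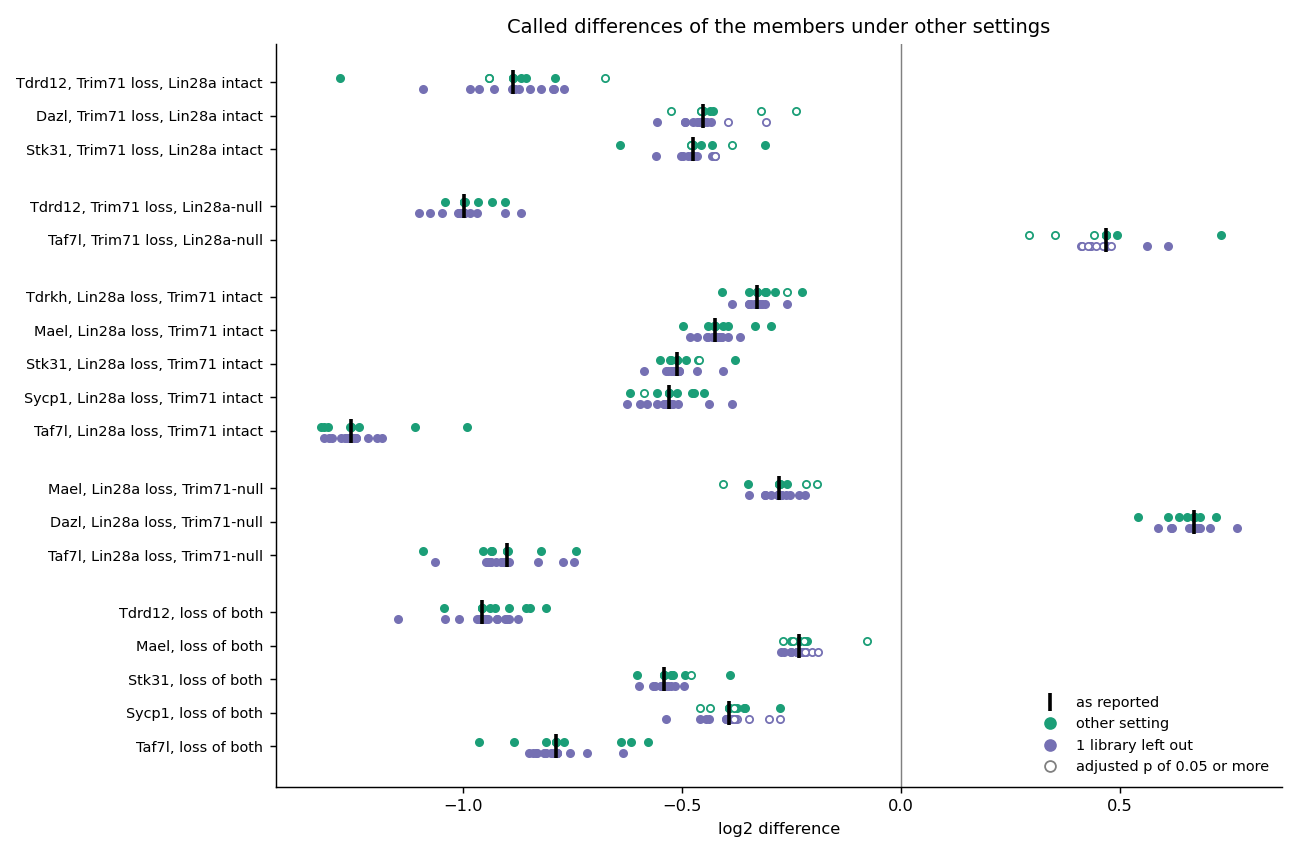
Log2 difference (horizontal axis) of the 18 called differences of the germline genes as reported (black bars), under other settings (green) and with 1 library left out (purple), with open symbols where the adjusted p was 0.05 or more. Tdrd12 and Taf7l lie apart from 0 in each comparison shown, and open symbols are most frequent for Dazl after Trim71 loss, Taf7l in Lin28a-null cells, and Mael and Sycp1 after loss of both.

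Of the 18 called differences of the 9 genes, 7 held in each other setting and in each fit that left out 1 library. These were Tdrd12 after Trim71 loss in Lin28a-null cells and after loss of both, Taf7l in both Lin28a comparisons and after loss of both, Mael after Lin28a loss with Trim71 intact, and Dazl after Lin28a loss in Trim71-null cells.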

How the data were processed

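Per the labels' protocols, mRNA was extracted with TRIzol, libraries were made with the TruSeq RNA kit v2, and they were sequenced paired-end on a HiSeq1500. CASAVA 1.8, STAR and DESeq2 are named in the submitters' processing notes without roles; the genome build and annotation are not given in the sources used here. The authors deposited 1 table of normalised values, which are log2 values judging by their range (-0.712 to 16.3, with 4126 of 412015 below 0), so fold sizes hold for that scale only. Depth is unknown. Differences between harvest days had been removed from the deposited values: no gene had a fitted day term above 1.7e-08, whereas shuffling days within genotype gave terms up to 1.15. Libraries of the same day are therefore tied across genotypes, which also bears on the library values, ranges and SDs given per genotype. In 1 KO-WT library each value was the average of its group (largest deviation 1.5e-08); it was left out, which leaves 18 libraries.

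Genes with at least 10 normalised units in at least 4 libraries were tested (14988, or 69.1%). Genotype means and a day term were fitted with limma 3.58.1 in R 4.3.3 (moderated statistics with a mean trend, 10 residual degrees of freedom, Benjamini-Hochberg adjustment over all tested genes, called at an adjusted p under 0.05). Day pairs the libraries across genotypes per the labels. Of each germline and repressor list, the up to 4 called genes with the largest differences were named per comparison; Dnmt1, Uhrf1 and the value of Tfap2c after Lin28a loss were added after being seen. The fit was tested on simulated data. Transcripts were compared with blastn 2.17.0 (at least 95% identity over 200 bases). The genes and lists were chosen with earlier results of these data known. The CpG minimum, the motif comparison and the checks of neighbouring and look-alike genes were chosen after the files had been seen. Alternatives were no day term, other filters, a pseudocount of 10 units, 75th percentile scaling, removal of GC and length trends, subsets of clones, days or genotypes, and leaving out each library.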

Additional observations from a re-analysis of the deposited data

Results flagged for a closer look

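In 4 of 40 sets of a gene in a genotype, 1 library stood apart from the others by Dixon's test at the 95% level; chance alone marks about 1 set in 20. WT-WT replicate 3 was low for Tdrd12, at 8.30 against 8.83 in the nearest library, and high for Sycp3, at 6.52 against 6.15. KO-WT replicate 4 was high for Sycp3, at 6.11 against 5.89. KO-KO replicate 4 was low for Taf7l, at 4.70 against 5.19.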

How the results depend on the processing

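Direction was read where a value was called. Of 531 values of the germline genes under other settings 28 had the other sign, and of 972 with 1 library left out 27 had; 0 of these were called in either fit. Of 18 calls, 7 held throughout.

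Counts of called genes moved by over 1.5 times as follows, with the 9 germline genes first and the 63 listed genes second where both moved (79 listed genes were tested with no filter and 43 at the filter of 50 units). Without the replicate block (no day term), Trim71 loss with Lin28a intact called 5 and 23, Trim71 loss in Lin28a-null cells called 17 of the 63, and the interaction called 2 and 5; the day term had already been spent in the deposited values, so that fit counts more residual degrees of freedom. For Trim71 loss with Lin28a intact, the other counts were 6 of the 63 with GC and length trends removed, 1 of the 63 in clones 1 and 1-4 alone, 0 and 0 in clones E3 and C1 alone, 1 and 1 on the 3 days with all 4 genotypes, and 0 and 0 with the 2 genotypes fitted alone. For Trim71 loss in Lin28a-null cells, they were 1 of the 9 with the pseudocount, 3 of the 79 with no filter, 3 of the 63 with 75th percentile scaling, 11 with GC and length trends removed, 0 in clones 1 and 1-4, 1 and 0 in clones E3 and C1, 1 and 0 on the 3 full days, and 3 of the 63 with the 2 genotypes alone. For Lin28a loss with Trim71 intact they were 18 of the 43 at a filter of 50 units and 3 and 18 in clones E3 and C1. For Lin28a loss in Trim71-null cells they were 17 of the 43 at 50 units, 10 of the 63 in clones 1 and 1-4 and 19 in clones E3 and C1. For loss of both they were 17 of the 43 at 50 units, 2 and 14 in clones E3 and C1, and 3 of the 9 on the 3 full days. The filter of 50 units tests fewer genes and the subsets fewer libraries; the cause of the other moves was not tested.

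With 1 library left out, the 9 genes gave 2 to 4, 1 to 2, 5 to 6, 3 to 4, 3 to 6 and 0 to 0 calls for Trim71 loss with Lin28a intact and in Lin28a-null cells, Lin28a loss with Trim71 intact and in Trim71-null cells, loss of both and the interaction. The 63 genes gave 2 to 13, 3 to 7, 28 to 34, 28 to 32, 26 to 30 and 0 to 0. For the 63 after Trim71 loss with Lin28a intact, the count was 7 without KO-WT replicate 1 or 4. In Lin28a-null cells it was 3 without WT-KO replicate 4, KO-KO replicate 1, 2 or 3, or KO-WT replicate 2. Among the 9 genes, loss of both gave 3 without KO-KO replicate 5, and Trim71 loss in Lin28a-null cells gave 1 without WT-KO replicate 1, 3, 4 or 5 or KO-KO replicate 1, 2, 3 or 5.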
